A study of Homo sapiens with 6 samples.

Results

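PEG10 and 8 other imprinted genes, SGCE, MEST, PEG3, PLAGL1, NDN, CDKN1C, DLK1 and GRB10, were followed across the 6 RNA-seq libraries, as 9 of the 23754 features in the table. PEG10 was selected on its lower level in these same libraries, so its change is given as a description and without a test. SGCE was taken as its neighbour, and the remaining 7 as well-known imprinted genes, with earlier results of these data known. The libraries came from IMR-90, a line of normal human fetal lung fibroblasts, which had been stably transduced and selected with puromycin to carry a Tet-pLKO-puro lentiviral vector encoding the sh-2 short hairpin against ZNF469, a zinc finger gene studied for its part in collagen expression. All 6 libraries therefore shared the vector. In the DOX+ group (n = 3) doxycycline at 2 µg/mL for 4 days induced the hairpin, and the DOX– group (n = 3, called wild-type in the labels) was the same line without doxycycline. There were no libraries with doxycycline but without the hairpin, so an effect of the drug and one of the knockdown cannot be told apart. Only the sh-2 hairpin was sequenced, so an effect of that hairpin on other transcripts cannot be told apart either. The submitters describe the 3 libraries of a group as technical replicates, so the errors and p-values below measure the spread between these libraries and may not cover that between cultures. The RNA was from whole cultures, in which fewer cells expressing a gene and less RNA per cell cannot be told apart.

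An imprinted gene is transcribed mainly from the copy inherited from one parent, because DNA methylation laid down in the germ line differs between the copies. Many paternally expressed genes are known to promote fetal growth and many maternally expressed ones to restrain it. In mice, several of the genes above are highly expressed in fetal tissues, decline together after birth and have been described as an imprinted gene network. A fetal lung fibroblast line is therefore a natural place to look at their level. Neither methylation nor the allele of origin was measured in these libraries.

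The libraries held 34057675 to 36120260 counts each. Counts were scaled to the depth of each library as CPM with TMM factors, which lay between 0.988 and 1.01, and 13991 features passed the filter on low counts. ZNF469 itself was at 119 ± 7.25 CPM in DOX– and 80.1 ± 0.488 CPM in DOX+ (SD, n = 3 each), 67.5% of the DOX– level. DOX+ replicate 2 stood apart on the first principal component (23.9% of the variance), at 32.8 against -12.6 to 0.52 for the other libraries. The fibroblast markers VIM, COL1A1, COL1A2, COL3A1, DCN and LUM were abundant, and 5 of the 10 fibroblast markers were called lower in DOX+ with 0 called higher, where 0.715% and 0.400% of all features tested were. The call of LUM (edgeR adjusted p = 0.0499) was lost with library-size, upper-quartile or RLE scaling (0.082, 0.052 and 0.055), with a length trend removed (0.072), on FPKM (0.28) and in all fits that left out a library (0.065 to 0.21) except the one without DOX+ replicate 2 (0.019). Of 7 epithelial markers, 5 had 0 counts in every library, and the summed level of the list was 0 to 0.472 CPM in DOX– and 0.331 to 0.392 CPM in DOX+. Of 4 endothelial markers, PECAM1 and CDH5 had 0 counts, with sums of 0.516 to 0.827 and 0.561 to 0.911 CPM. Among 4 blood markers, PTPRC had 0 to 6 counts per library and the list summed to 60.5 to 66.7 and 59 to 65.1 CPM, nearly all of it from CD68. The 3 smooth muscle markers summed to 204 to 217 CPM in DOX– and 206 to 227 CPM in DOX+, nearly all of it from CNN1. The part of other cell types in the results was not tested.

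To compare the genes with each other, the FPKM values deposited by the authors were used, which are scaled to transcript length. MEST, which encodes a protein with the fold of hydrolase enzymes, had by far the highest level, 84.6 ± 2.32 FPKM in DOX– and 88.6 ± 2.23 FPKM in DOX+ (SD, n = 3 each). NDN (21.7 ± 1.03 FPKM) and SGCE (19.3 ± 2.17 FPKM) followed in DOX–, and their libraries overlapped, from 20.5 to 22.4 FPKM for NDN and from 17.8 to 21.8 FPKM for SGCE. PLAGL1 lay below both at 14.9 ± 0.968 FPKM.

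PEG10 at 7.47 ± 0.336 FPKM lay just above GRB10 at 6.51 ± 0.0575 FPKM in DOX–. The lowest PEG10 library (7.17 FPKM) was above the highest GRB10 library (6.56 FPKM). The place of PEG10 depends on the transcript length behind its FPKM. In DOX– CPM, which is not scaled to length, PEG10 (52.2) lay above PLAGL1 (48.6), NDN (40.3) and SGCE (36.1). In DOX+ PEG10, at 4.62 to 5.01 FPKM, lay below GRB10, at 6.45 to 7.05 FPKM. This change of order restates the fall for which PEG10 was chosen. CDKN1C was low at 1.26 ± 0.172 FPKM in DOX– and 1.47 ± 0.167 FPKM in DOX+. DLK1 and PEG3 were at the edge of detection, with 0.034 to 0.0981 and 0 to 0.00611 FPKM in DOX–. The 9 genes thus ranged from an abundant transcript to ones hardly present in these fibroblasts.

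**Figure D1:**
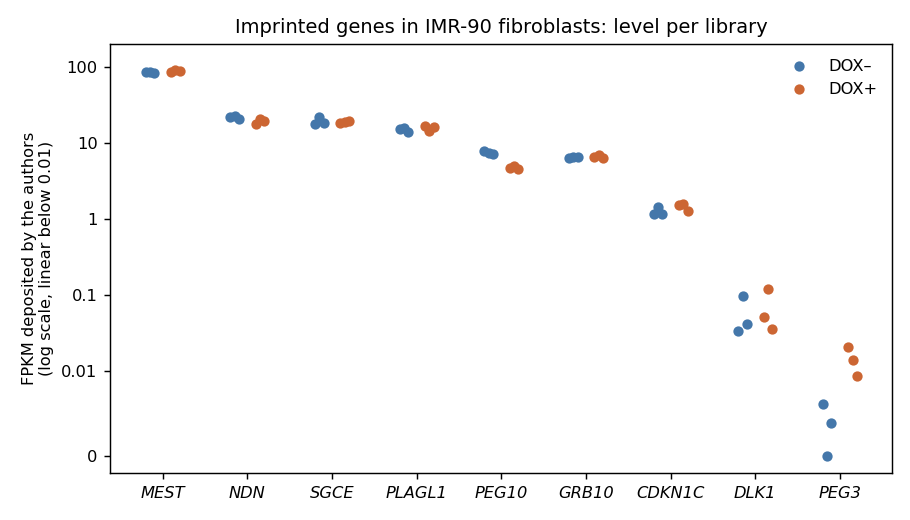
FPKM (vertical axis, log scale that turns linear below 0.01) of the 9 genes in each library, 3 DOX– (blue) and 3 DOX+ (orange) points per gene, ordered by the DOX– mean. Levels ran from about 84.6 FPKM for MEST to 0.00333 FPKM for PEG3 in DOX–. Among genes above 1 FPKM, the DOX+ points of PEG10 (4.62 to 5.01 FPKM) sit furthest below its DOX– points (7.17 to 7.83 FPKM). PEG10 was chosen for this fall.

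PEG10 (ENSG00000242265, chromosome 7, 94656325 to 94669695, plus strand, GRCh38) is a protein-coding gene descended from a retrotransposon of the Ty3 kind. It encodes Gag-like and Pol-like proteins through a ribosomal frameshift and is needed for the placenta in mice. Its counts were 1739, 1849 and 1840 in DOX– and 1227, 1261 and 1202 in DOX+. On the TMM-normalised scale these were 51.4, 52.6 and 52.8 CPM against 34.4, 35.6 and 33.2 CPM. All 3 DOX+ libraries lay well below all 3 DOX– libraries, and the libraries within a group differed by little.

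The DOX+ mean of PEG10 was 65.8% of the DOX– mean (34.4 ± 1.19 and 52.2 ± 0.764 CPM, SD, n = 3 each), a log2 fold change of -0.60 (SE 0.0485, 95% interval -0.71 to -0.50). PEG10 was 1 of 100 features called lower at an adjusted p (FDR) under 0.05 by edgeR, 0.715% of the features tested, while 56 or 0.400% were called higher. With scaling to library size alone those counts were 77 lower and 88 higher. Because PEG10 was chosen for this change, nothing is read from its being among them. A larger fall on the log2 scale was seen for 230 features, of which 12 were among those called lower. Of the 4486 features with at least the abundance of PEG10, only COL1A1, PSAT1 and ASNS fell further, genes named here after their values were seen. The choice of PEG10 for its fall favours a high place in such rankings, so nothing is read from them either.

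SGCE (ENSG00000127990, chromosome 7, 94524204 to 94656572, minus strand) encodes epsilon-sarcoglycan, a membrane glycoprotein whose loss from the paternal copy causes myoclonus-dystonia. It lies head to head with PEG10 and is known to share its imprinted control region. In GENCODE 44 the canonical transcripts of the pair start 237 bases apart, and the gene spans overlap by 248 bases on opposite strands. SGCE counts were 1168, 1383 and 1200 in DOX– and 1175, 1216 and 1293 in DOX+. The groups overlapped in part, at 34.4 to 39.3 CPM in DOX– and 32.9 to 35.7 CPM in DOX+, and 2 of the 3 DOX+ libraries lay below every DOX– library.

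The log2 fold change of SGCE was -0.07 (SE 0.0632, edgeR adjusted p = 0.64), with a 95% interval of -0.21 to 0.06. The log2 fold change of PEG10 was outside this interval. PEG10 was picked for a low value, so this comparison is no test of a difference between the pair. The ratio of PEG10 to SGCE in CPM was 1.49, 1.34 and 1.53 in DOX– and 1.04, 1.04 and 0.93 in DOX+. Because PEG10 was chosen for its fall, a lower ratio in the DOX+ libraries largely restates that choice, and nothing further is read from it. How the kit treated strand is not given in the sources used here, and reads in the overlap of the pair cannot be assigned to one gene if strand was not kept.

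Genes with a start within 500 kb of that of PEG10 were then described, 17 genes in GENCODE 44, of which 5 including PEG10 had a row. COL1A2, the gene of the second type I collagen chain and a major product of these fibroblasts, starts at -261.5 kb relative to PEG10. It fell from 10083 ± 78.3 to 7107 ± 147 CPM (SD, n = 3 each), a log2 fold change of -0.50 (SE 0.0168, edgeR adjusted p = 1.7e-09). CASD1, an enzyme that acetylates sialic acids, starts at -146.6 kb and overlaps SGCE by 32816 bases on the opposite strand. CASD1 was at 12.7 ± 0.739 and 12.6 ± 1.32 CPM, with a log2 fold change of -0.01 (95% interval -0.23 to 0.21, edgeR adjusted p = 0.98). PPP1R9A, a regulatory subunit of protein phosphatase that starts 251.2 kb after PEG10, had 0 counts in all 6 libraries, which allows up to 3 counts per library. SGCE and CASD1, whose intervals held 0, thus start between COL1A2, whose interval was below 0, and PEG10. PEG10 was chosen for its fall, so its own interval is no test.

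**Figure D2:**
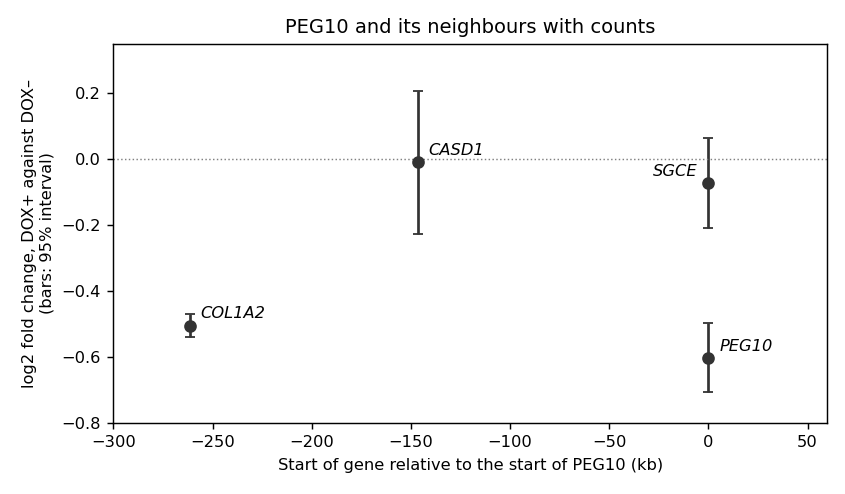
Log2 fold change of DOX+ against DOX– (vertical axis, bars are 95% intervals from edgeR) for the 4 genes with counts around PEG10, placed by the distance of their start from that of PEG10 in kb (horizontal axis). PEG10 (-0.60, chosen for its fall) and COL1A2 (-0.50) lie below 0, and the bars of SGCE (-0.21 to 0.06) and CASD1 (-0.23 to 0.21) cross it.

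NDN and MEST are the 2 genes for which promoter sequence is shown: NDN as the gene besides PEG10, among those past the filter, whose groups did not overlap, and MEST as the most abundant. RefSeq windows for GRCh38.p14 matched 4 of the 9 genes, namely MEST, PLAGL1, NDN and GRB10, and PEG10, SGCE, PEG3, CDKN1C and DLK1 had no entry. The 250 bases before a start are given 5′ to 3′ on the strand of the gene, with each CpG, the dinucleotide that carries DNA methylation, in capitals. The NDN window is chr15:23687306-23687555 on the minus strand. The MEST window is chr7:130491808-130492057 on the plus strand and ends at a RefSeq start 27 bases before the canonical one of GENCODE 44.
NDN: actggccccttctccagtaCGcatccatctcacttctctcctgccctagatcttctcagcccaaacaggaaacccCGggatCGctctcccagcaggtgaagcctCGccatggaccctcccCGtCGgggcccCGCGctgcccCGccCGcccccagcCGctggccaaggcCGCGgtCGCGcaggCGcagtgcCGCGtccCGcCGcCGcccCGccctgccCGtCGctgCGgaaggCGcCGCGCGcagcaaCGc
MEST: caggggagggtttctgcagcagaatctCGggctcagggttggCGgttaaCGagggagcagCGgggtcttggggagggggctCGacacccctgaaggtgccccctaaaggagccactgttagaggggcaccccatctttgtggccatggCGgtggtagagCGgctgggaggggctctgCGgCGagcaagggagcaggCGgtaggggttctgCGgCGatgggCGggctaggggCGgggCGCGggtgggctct
The NDN window held 30 CpG and the MEST window 16, against a median of 11 in all 35116 RefSeq windows. At least 30 CpG were present in 12.4% of all windows and at least 16 in 41%. The window at the canonical MEST start, which overlaps the one shown, held 20 CpG, reached by 32.4%. CpG was searched as the letters CG, which read the same on both strands. At their canonical starts PLAGL1 had 32 CpG, reached by 9.52% of windows, and GRB10 had 19, reached by 34.6%. Windows at other starts differed widely. Those of GRB10 held from 2 CpG (reached by 85.3%) to 40 (2.16%), and those of PLAGL1 from 1 (93.9%) to 21 (30.2%). These are counts of letters, and the state of the sites in IMR-90 was not measured.

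NDN (ENSG00000182636, chromosome 15, 23685400 to 23687305, minus strand) encodes necdin, a paternally expressed growth suppressor of the MAGE family from the Prader-Willi region. It had 1388, 1447 and 1352 counts in DOX– and 1184, 1320 and 1302 in DOX+, or 41, 41.1 and 38.8 CPM against 33.2, 37.2 and 36 CPM. Every DOX+ library was below every DOX– library, although the gap between 37.2 and 38.8 CPM was narrower than the spread within either group.

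The mean of NDN in DOX+ was 88% of that in DOX– (35.5 ± 2.07 and 40.3 ± 1.33 CPM). The log2 fold change of -0.18 (SE 0.0567, 95% interval -0.31 to -0.06) did not pass the test (edgeR adjusted p = 0.15). Groups that did not overlap in this direction were found for 1477 features, 10.6% of those tested, and in the opposite direction for 1361, or 9.73%. Leaving PEG10 aside, NDN was 1 of 6 tested members with such a gap, and no other member that passed the filter had one in either direction.

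MEST (ENSG00000106484, chromosome 7, 130486171 to 130506465, plus strand) had 7822, 8342 and 7937 counts in DOX– and 8337, 8526 and 8530 in DOX+. On the normalised scale these were 231, 237.2 and 227.6 CPM against 233.7, 240.5 and 235.5 CPM, and the groups overlapped. The log2 fold change was 0.03 (SE 0.0348, 95% interval -0.05 to 0.10, edgeR adjusted p = 0.75). This was the narrowest interval of the members. MEST overlaps the antisense transcript MESTIT1 by 4863 bases and the neighbouring gene COPG2 by 228 bases, so its reads may include some of theirs.

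PLAGL1 (ENSG00000118495, chromosome 6, 143940300 to 144064599, minus strand) encodes a zinc finger transcription factor, also called ZAC1, that is known to regulate other imprinted genes. Its counts were 1651, 1763 and 1639 in DOX– and 1804, 1683 and 1880 in DOX+, or 47 to 50.1 and 47.5 to 51.9 CPM. The groups overlapped, and the log2 fold change was 0.04 (SE 0.0501, 95% interval -0.07 to 0.15, edgeR adjusted p = 0.76). The imprinted transcript HYMAI overlaps PLAGL1 by 3347 bases on the same strand and was not analysed here.

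GRB10 (ENSG00000106070, chromosome 7, 50590063 to 50793462, minus strand) encodes an adaptor that binds the insulin and IGF1 receptors and restrains their signal. Counts were 1116, 1104 and 1173 in DOX– and 1200, 1178 and 1204 in DOX+, or 32.7 ± 1.15 and 33.4 ± 0.232 CPM (SD, n = 3 each). The log2 fold change was 0.03 (SE 0.0528, 95% interval -0.08 to 0.15, edgeR adjusted p = 0.83). GRB10 lies on chromosome 7 as do PEG10, SGCE and MEST, far from all of them.

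CDKN1C (ENSG00000129757, chromosome 11, 2883213 to 2885775, minus strand) encodes a maternally expressed inhibitor of cyclin-dependent kinases and is mutated in Beckwith-Wiedemann syndrome. It had 82, 106 and 82 counts in DOX– and 101, 108 and 92 in DOX+, or 2.60 ± 0.364 and 2.81 ± 0.254 CPM. The log2 fold change was 0.11, with a 95% interval of -0.28 to 0.50 (SE 0.179, edgeR adjusted p = 0.82). At this depth a moderate change of CDKN1C in either direction was not detectable.

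DLK1 (ENSG00000185559, chromosome 14, 100725705 to 100738224, plus strand), a transmembrane relative of the NOTCH ligands, had 6, 16 and 8 counts in DOX– and 10, 22 and 7 in DOX+. PEG3 (ENSG00000198300, chromosome 19, 56810077 to 56840728, minus strand), a large zinc finger gene, had 2, 0 and 2 counts in DOX– and 7, 5 and 4 in DOX+. Both missed the filter and entered no test. The DOX– counts of PEG3 were below the 3 counts that a count of 0 allows, so no fold is given, and PEG3 shares 30652 bases on the same strand with ZIM2.

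**Figure D3:**
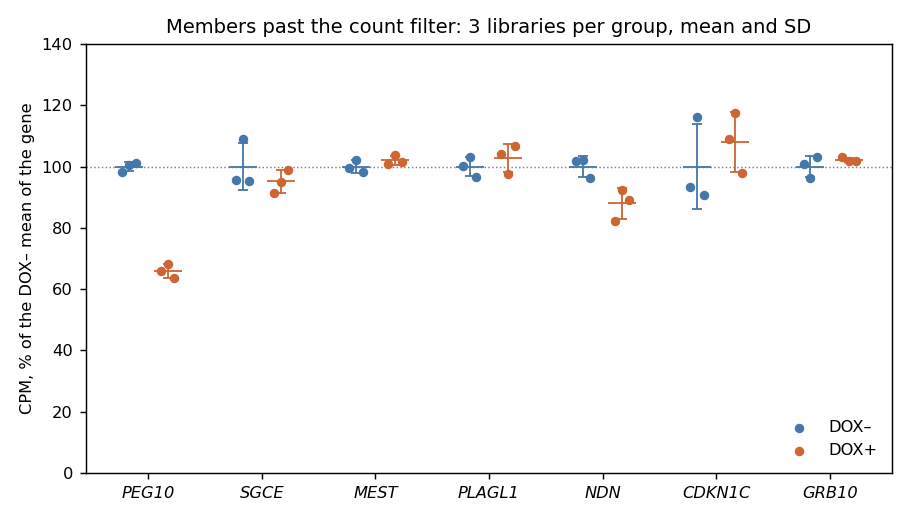
CPM of the 7 members that passed the count filter, as a percentage of the DOX– mean of each gene (vertical axis, starting at 0), with 3 DOX– (blue) and 3 DOX+ (orange) libraries per gene and bars for the mean and SD. The DOX+ points of PEG10 lie at 63.6% to 68.1%, those of NDN at 82.4% to 92.4%, and the groups of the other 5 genes overlap.

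Without DOX+ replicate 2, the library that stood apart, the log2 fold change was -0.63 for PEG10, -0.07 for SGCE, -0.22 for NDN (edgeR adjusted p = 0.16), 0.02 for MEST, 0.08 for PLAGL1, 0.05 for CDKN1C and 0.04 for GRB10. Each kept its sign without that library. The profile of PEG10 over the 6 libraries was also compared with that of 11685 features with a mean log2 CPM over 1. The 5 most alike by Pearson correlation of log2 CPM were FUZ (r = 0.994), NUPR1 (r = 0.994), TFRC (r = 0.993), TPX2 (r = 0.991) and KRBA1 (r = 0.990). None of these is in the list of imprinted genes, and each had every DOX+ library below every DOX– library. Among the members, r with PEG10 was 0.86 for NDN and 0.43 for SGCE, and from -0.53 (MEST) to -0.34 (CDKN1C) for the other 4. With 6 libraries in 2 groups, these correlations mostly restate the group difference.

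The other imprinted genes were then taken as a list of 48, of which 39 had a row, 7 had 0 counts in all libraries and 28 passed the filter. None was called by edgeR in either direction. Of these 28, 17 had a log2 fold change below 0 and 11 above, with a median of -0.03, beside a median of -0.0019 over all 13991 features, 50.7% of which were below 0. The groups did not overlap for 4 of the 28 on the lower and 3 on the higher side, which is near the shares of 10.6% and 9.73% over all features. H19, KCNQ1OT1, MEG3, MEG8, MIMT1, HYMAI, MESTIT1, GNAS-AS1 and MCTS2 were not analysed here.

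The most abundant of the list by FPKM were GNAS, HM13, SNRPN and PHLDA2. GNAS, the stimulatory G protein subunit whose imprinting varies between tissues, was at 1143 ± 33.2 and 1112 ± 36.3 CPM (log2 fold change -0.04, edgeR adjusted p = 0.59). HM13, a signal peptide peptidase, was at 155 ± 9.44 and 157 ± 3.59 CPM (0.02, adjusted p = 0.90). SNRPN, a splicing protein from the Prader-Willi region like NDN, was at 132 ± 4.46 and 123 ± 7.97 CPM (-0.10, adjusted p = 0.36). PHLDA2, a maternally expressed gene that limits placental growth, was at 73.5 ± 4.03 and 64.8 ± 3.99 CPM (-0.18, SE 0.0549), and its adjusted p of 0.15 was the smallest of the list. SNRPN and PHLDA2 had each DOX+ library below each DOX– library.

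Members and list together gave 34 tested imprinted genes besides PEG10. At an unadjusted p under 0.05, 6 of these 34 passed in edgeR, while 2099 of all features, or 15.0%, did. They were NDN, PHLDA2, IGF2, ZNF331, CPA4 and MAGEL2, the last 4 named after their values were seen. IGF2, the fetal growth factor, had a log2 fold change of -0.20 (23.9 ± 2.48 and 20.9 ± 0.584 CPM, edgeR adjusted p = 0.26). The symbol IGF2 stands on 2 rows, and the one paired with it in the reference was used. MAGEL2, a relative of NDN from the same region, had 12, 9 and 19 counts in DOX– and 34, 24 and 24 in DOX+, so every DOX+ library was above every DOX– library at a low level (0.98, SE 0.401, edgeR adjusted p = 0.27).

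The 34 log2 fold changes ran from -0.46 for SNURF to 0.98 for MAGEL2, both genes of low count, and SNURF shares its transcripts with SNRPN. For the 19 with a mean log2 CPM over 5 they ran from -0.18 to 0.10. PEG10 at -0.60 was thus below each of the other 34, as its selection would favour. By the copy that is usually expressed, known from other tissues, 17 tested genes were paternal, 9 below 0 and 8 above, with PEG10, which was chosen for its fall, among the 9. Of 4 maternal genes, 1 was below 0 and 3 above, and 2 genes were tissue-dependent. The other tested imprinted genes, such as ATP10A, OSBPL5 and CPA4, were assigned no copy here. These splits thus cover only part of the tested genes, and no leaning of either class is read from them.

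**Figure D4:**
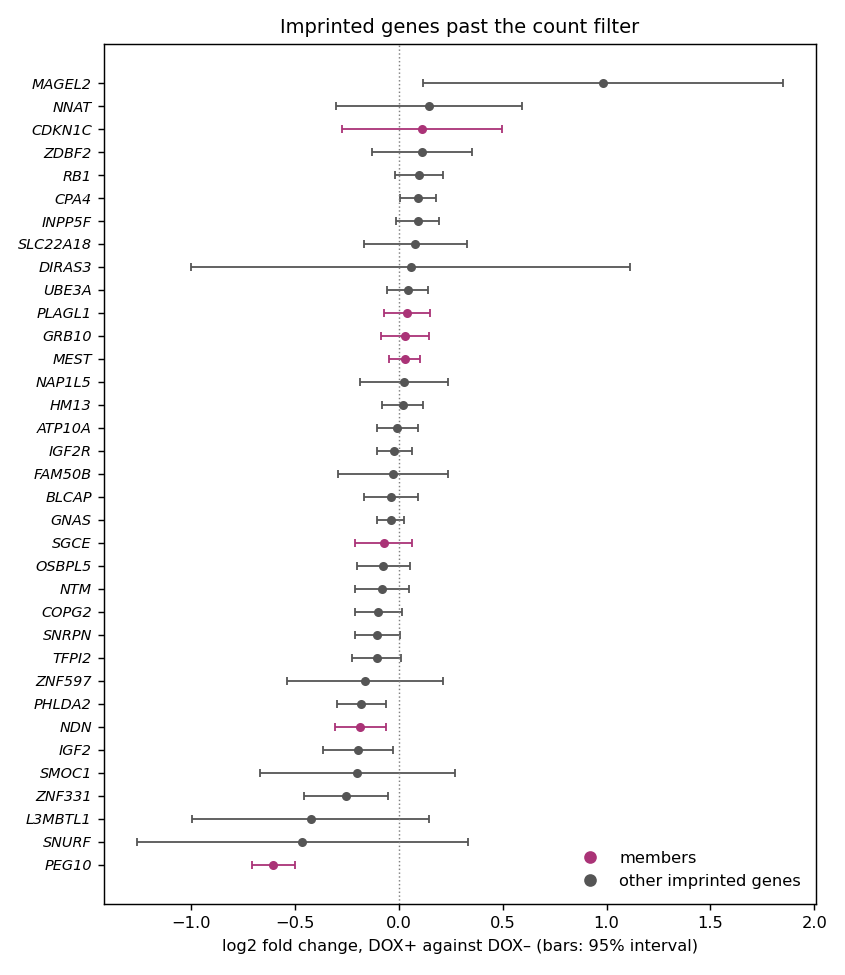
Log2 fold change of DOX+ against DOX– (horizontal axis, bars are 95% intervals from edgeR) for the 35 imprinted genes past the count filter, ordered by value, with the 7 members in purple and the others in grey. PEG10 lies lowest at -0.60, and most of the remaining genes lie near 0, with wide bars for genes of few counts such as MAGEL2 (0.98).

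The imprinted gene network as described in mice was taken as 16 genes, 11 of which were tested. Its member DCN, the collagen-binding proteoglycan decorin, was the only one called. It was called lower, as were 0.715% of all features tested, while 0.400% were called higher. DCN is also among the fibroblast markers called lower above, so the call is not particular to this list. DCN fell from 1640 ± 62.3 to 1443 ± 15.1 CPM (SD, n = 3 each), a log2 fold change of -0.18 (SE 0.0281, edgeR adjusted p = 0.0056). The adjusted p was 0.053 without DOX– replicate 1 and 0.52 on FPKM. Of the 11 genes, 7 were below 0 and 4 above, with a median of -0.04.

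Relatives of PEG10 that also descend from retrotransposon Gag genes, the RTL and PNMA families, gave 11 tested genes of 15, none called, with 9 below 0 and 2 above and a median of -0.03. The most abundant, RTL8C, was at 287 ± 6.9 and 284 ± 12.2 CPM (log2 fold change -0.02). RTL8A was at -0.04, PNMA1 at -0.02 and LDOC1 at -0.03. RTL9, named after its values were seen, had 30, 35 and 48 counts in DOX– and 16, 26 and 24 in DOX+. Its groups did not overlap, and its log2 fold change of -0.82 (SE 0.334) did not pass the test (edgeR adjusted p = 0.27). RTL8A and RTL8C are near-identical copies between which reads may be split. Partners of SGCE in the sarcoglycan and dystroglycan complex gave 11 tested genes of 13, none called, 5 below 0 and 6 above. The dystroglycan gene DAG1 was at 197 ± 9.29 and 196 ± 6.66 CPM (-0.01), and SGCB, beta-sarcoglycan, at 126 ± 4.18 and 138 ± 5.65 CPM (0.13, edgeR adjusted p = 0.19).

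Relatives of NDN in the MAGE family gave 8 tested genes, none called, with MAGED1 at 511 ± 11 and 522 ± 11.2 CPM (log2 fold change 0.03) and MAGED2 at 273 ± 2.92 and 273 ± 10.2 CPM (-0.0028). MAGED4 and MAGED4B are near-identical copies. PLAGL2, the relative of PLAGL1, was at 27.5 ± 0.844 and 26.9 ± 0.612 CPM (-0.03). Of the 6 CDK inhibitors related in function to CDKN1C none was called, and CDKN1A, the stress-induced inhibitor, was the most abundant at 842 ± 3.42 and 821 ± 14.5 CPM (-0.04). Adaptors and receptors of the insulin and IGF pathway around GRB10 gave 5 tested genes of 7, none called, from -0.07 (IRS1) to 0.22. The 12 tested genes that maintain imprints or methylate DNA had 6 below 0 and 6 above and none called, with TRIM28 at -0.05, UHRF1 at 0.02 and the maintenance methyltransferase DNMT1 at -0.12 (183 ± 3.24 and 168 ± 6.04 CPM, edgeR adjusted p = 0.17).

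The NOTCH pathway, to which DLK1 is related, was the list with calls on the higher side. Like the other lists it was chosen with earlier results of these data known, and DLK1 itself missed the filter. Of 13 tested genes, JAG1 and DLL4, both NOTCH ligands, were called higher and none lower (0.400% and 0.715% over all features), with 9 above 0, 4 below and a median of 0.08. JAG1 had 2931, 3190 and 3046 counts in DOX– and 3568, 3688 and 3678 in DOX+, a log2 fold change of 0.21 (SE 0.0408, edgeR adjusted p = 0.028). DLL4 had 830, 842 and 991 counts in DOX– and 1116, 1126 and 1217 in DOX+, a log2 fold change of 0.33 (SE 0.0708, edgeR adjusted p = 0.045). In both genes all DOX+ libraries lay above all DOX– libraries. The receptors NOTCH2 (-0.02) and NOTCH3 (0.08) were not called. The call of JAG1 was lost whichever library was left out (adjusted p from 0.051 to 0.13), and that of DLL4 except without DOX– replicate 3 (0.016 there, otherwise 0.085 to 0.17). On FPKM both calls were lost (limma adjusted p = 0.14), and JAG1 also with a length trend removed (0.052).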

How the data were processed

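The authors sequenced poly(A)-selected RNA of IMR-90 cells as 150 bp read pairs, filtered the reads on quality, mapped them with HISAT2 on GRCh38 and used StringTie. Versions, annotation release, counting step and strand setting are not given in the sources used here. The deposited table holds whole-number counts without normalization and FPKM, scaled by the authors to length and depth. All 6 libraries were used, grouped by title; 17 stray lines were dropped from the table.

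Differences were tested in edgeR 4.0.16 (R 4.3.3) with filterByExpr (minimum count 10), TMM scaling and a quasi-likelihood test on the group alone, adjusted by Benjamini-Hochberg across all 13991 features; a call is an adjusted p under 0.05. Coordinates, and the canonical transcript lengths for the length trend, are from GENCODE 44, which may not be the authors' release. Promoter windows are from RefSeq.

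The members and lists were chosen with earlier results of these data known. Named were all members, ZNF469, listed genes that passed the test, up to 4 per list by FPKM, genes within 500 kb of PEG10 and the 5 features most like it. Alternatives were no filter, CPM over 1 in at least 3 libraries, other scalings, DESeq2 1.42.0, limma 3.58.1 (voom, and log2(FPKM + 1)), leaving out each library, a replicate block and removal of a length trend. Scripts were tested on simulated counts. Low counts limit CDKN1C, DLK1 and PEG3, and intervals cover only the spread of these libraries.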

Additional observations from a re-analysis of the deposited data

How the results depend on the processing

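The log2 fold changes of the 7 tested members kept their sign and their side of the threshold in 16 alternatives each, except that DESeq2 gave no adjusted p for CDKN1C: -0.63 to -0.55 for PEG10, -0.11 to -0.0047 for SGCE, 0.02 to 0.07 for MEST, 0.01 to 0.08 for PLAGL1, -0.22 to -0.14 for NDN, 0.05 to 0.23 for CDKN1C and 0.0037 to 0.05 for GRB10, with 1 member called in each. That member was PEG10, chosen for its fall in these same libraries, so its repeated call is no support. The adjusted p of NDN ran from 0.083 (DESeq2) to 0.39. The number of features called moved more. Against 100 lower and 56 higher, there were 163 and 127 without a filter, 265 and 266 with DESeq2, and 24 and 6 with limma on log2(FPKM + 1); scaling to library size alone gave 88 higher. Leaving out one library gave 54 to 92 lower and 20 to 69 higher. The cause of these shifts was not tested, and leaving out a library changed both the number of libraries and which ones were used. Deviations of same-numbered libraries from their group means had correlations of -0.024, -0.035 and 0.036. These correlations by themselves gave no sign of a pairing, but with so few libraries they cannot exclude one. With the replicate block more features were called, 157 lower and 135 higher, and no member changed its call. Whether variation shared by same-numbered libraries lay behind the added calls was not tested.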
